A study of Mus musculus with 2 samples.

Results

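Growth hormone signalling in skeletal muscle was followed through 9 genes of 55536 Ensembl genes quantified: the receptor Ghr, the kinase Jak2, the transcription factors Stat3, Stat5a and Stat5b, and the feedback inhibitors Cish, Socs1, Socs2 and Socs3. The genes were taken by symbol, and the group was chosen by the measured ratio between the animals, because Cish, Socs2 and Socs3 stood apart in it. That ratio is therefore given as a description, and nothing is read from it about the pathway. Total RNA had been sequenced from the gastrocnemius, a large muscle of the calf, in 2 male B6CASTF1/J mice, the F1 generation of a C57BL/6 by CAST cross, aged 36 days, with no treatment or engineered allele named in the labels. The animals form 1 group (n = 2), both carry 1 donor entry per the labels, and the libraries were made from 300 ng of RNA, depleted of ribosomal RNA and spiked with ERCC RNAs. A group of 2 animals with no other group allows no test, so no p-value is given, and the spread between the animals may be partly technical.

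Growth hormone binds a pair of receptor chains at the cell surface, which brings the attached JAK2 kinases together. JAK2 then phosphorylates the receptor and STAT5A and STAT5B, which enter the nucleus and bind DNA at a palindromic motif, and STAT3 is used mainly by cytokines of the interleukin 6 family. CIS and the SOCS proteins are products of STAT target genes that bind the activated receptor or kinase and end the signal, and growth hormone acting on muscle is known for driving local production of IGF1.

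At the deposited gene level the receptor and the STAT5 partner Stat5b were the most abundant members by mean level. Levels are in TPM, transcript numbers scaled for length and library total, a relative abundance that can be compared between genes. By mean TPM the order was Ghr, Stat5b, Cish, Stat3, Jak2, Socs2, Stat5a, Socs3 and Socs1. The ranges of the animals overlapped between Stat5b and Cish, Cish and Stat3, Socs2 and Stat5a, and Stat5a and Socs3, so those neighbours were not ordered beyond their spread. The other 4 neighbouring pairs, Ghr and Stat5b, Stat3 and Jak2, Jak2 and Socs2, and Socs3 and Socs1, did not overlap.

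**Figure D1:**
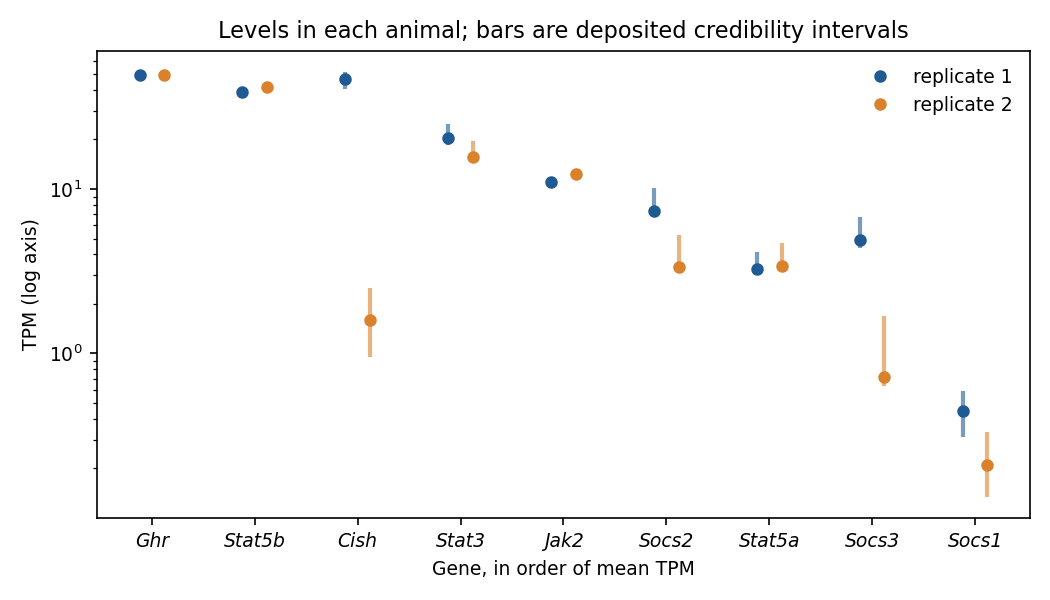
TPM on a log axis of the 9 genes, ordered by mean TPM, with a point for each animal and a bar for the deposited credibility interval of that library. The points of Ghr, Jak2, Stat5a and Stat5b lie close together, and those of Cish, at 46.5 and 1.59 TPM, are the farthest apart.

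Values of the animals are given with replicate 1 first. Ghr, the growth hormone receptor, was at 49.4 and 49.1 TPM, a mean of 49.2 ± 0.226 (SD, n = 2), with 4084 and 4017 expected counts. The animals were close to equal, and the deposited credibility intervals, 46.5 to 50.9 and 46.3 to 50.7 TPM, lay almost on top of each other. The gene lies on chromosome 15 at 3317760 to 3583492 on the minus strand (mm10) and has 10 annotated transcripts. The second transcript table, estimated from the reads with an index rather than from alignments, gave higher levels of 76.3 and 70.1 TPM, again similar in the animals.

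The rule that chose the genes used no transcript of Ghr, and the transcripts divide by what they encode. In the mouse the secreted growth hormone binding protein comes from the receptor gene itself by alternative splicing, which joins the exons for the hormone-binding domain to a short exon with its own stop codon in place of the membrane-spanning exon. The junction is shown because it is the point where the forms part, with the last 30 bases of the shared exon (chromosome 15, 3327974 to 3328142, minus strand, mm10) in lower case and the coding bases of the next exon in capitals, read 5′ to 3′ from the GENCODE M21 transcripts.
Ghr-201, full receptor, exon 9, 3325898 to 3325988: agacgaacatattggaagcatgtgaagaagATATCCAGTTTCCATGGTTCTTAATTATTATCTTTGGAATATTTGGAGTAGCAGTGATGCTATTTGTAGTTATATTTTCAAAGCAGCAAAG
Ghr-203, binding protein, coding part of exon 9, 3327604 to 3327686: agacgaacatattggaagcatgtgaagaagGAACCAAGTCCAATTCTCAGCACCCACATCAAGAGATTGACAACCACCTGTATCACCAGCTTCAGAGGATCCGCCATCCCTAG
The capitals of Ghr-201 hold no stop in frame and belong to a transcript of 11 exons that encodes 650 residues, whereas those of Ghr-203 end in the stop codon of a protein of 297 residues encoded by 9 exons.

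Both forms were abundant in this muscle. Transcripts of the full receptor (Ghr-201 and Ghr-208) carried 54.4% of Ghr TPM in replicate 1 and 54.0% in replicate 2, a mean of 54.2% ± 0.275 (SD, n = 2). Those of the binding protein (Ghr-203 and Ghr-202) carried 38.0% and 35.0%, a mean of 36.5% ± 2.07. The receptor form exceeded the binding protein form in both animals, with a ratio of 1.43 in replicate 1 and 1.54 in replicate 2. In TPM the receptor form stood at 26.8 and 26.5, and the binding protein form at 18.7 and 17.2. The remaining 9.35% ± 2.34 fell to 6 transcripts with no annotated stop codon, which cannot be given to either form.

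The split was similar in the second transcript table. There the full receptor took 53.5% ± 1.01 and the binding protein 33.9% ± 0.0488 of Ghr, and the ratio was 1.60 and 1.56. The share within each form was less settled. Ghr-203 alone carried 36.3% in the first table and 20.4% in the second, where Ghr-202, which encodes the same 297 residues, carried 13.6% in place of 0.214%. The main receptor transcript Ghr-201 carried 48.2% ± 0.964 in the first table and 42.8% ± 0.648 in the second.

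**Figure D2:**
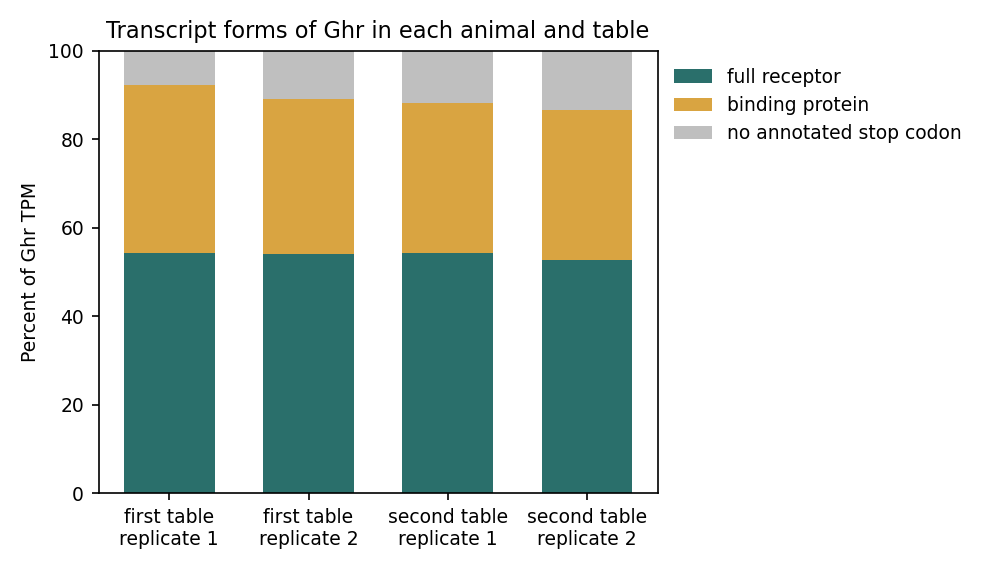
Percent of Ghr TPM in transcripts that encode the full receptor, in transcripts that encode the binding protein and in transcripts with no annotated stop codon, as stacked bars for each animal in the first and the second transcript table. The full receptor takes over 50% in all 4 bars, and the binding protein between 33.9% and 38.0%.

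Jak2, the kinase bound to the receptor, was at 11.1 and 12.4 TPM, a mean of 11.7 ± 0.955 (SD, n = 2). Its log2 ratio, taken as replicate 2 over 1 after adding 0.1 to each TPM, as for every ratio here, was 0.16, and the intervals of 10.3 to 11.6 and 11.6 to 12.8 TPM only just met. The gene lies on chromosome 19 at 29251828 to 29313080 on the plus strand. Its TPM in the first table fell on a pair of transcripts, with 57.3% ± 7.10 and 42.7% ± 7.10, that encode the same 1132 residues. The second table turned their order round, with 37.6% and 58.2%. Among the JAK kinases Jak2 took 18.7% ± 3.26 of the summed TPM, with 16.4% in replicate 1 and 21.1% in replicate 2. Jak1, which serves receptors of the interleukin 6 and interferon families, took 77.4% ± 3.60 and stood at 53.8 and 44.1 TPM. Tyk2 (2.65%) and Jak3 (1.21%) made up the rest.

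Stat5b, the STAT5 gene known for the growth response to growth hormone in male mice, was at 39.0 and 41.6 TPM (40.3 ± 1.87, SD, n = 2). Stat5a, its close relative and the form best known from the mammary gland, was at 3.26 and 3.40 TPM (3.33 ± 0.0990). The TPM of Stat5b was 12.0 times that of Stat5a in replicate 1 and 12.2 times in replicate 2. Both genes were thus nearly level between the animals, with log2 ratios of 0.09 and 0.06.

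Reads shared by this near-identical pair were divided by the authors' quantifier, since neither count was whole. Stat5b had 5594.86 and 5778.87 expected counts and Stat5a had 353.14 and 385.13, while their sums were whole, at 5948.00 and 6164.00. How many reads were shared was not tested. The genes sit side by side on chromosome 11 of mm10, Stat5b at 100780731 to 100850724 on the minus strand and Stat5a at 100859351 to 100885169 on the plus strand, 8626 bases apart. Stat5b-202, which encodes 786 residues, carried 82.5% ± 3.51 of Stat5b, but 53.6% in the second table, where Stat5b-201 with the same coding length took 27.5%. The processed transcript Stat5b-203 carried 14.4% and 18.9%. Stat5a TPM was spread over 3 coding transcripts, and the division was not settled. Stat5a-201 carried 23.0% and 47.8% in the animals, with a mean of 47.1% in the second table. Stat5a-202, which encodes the same 793 residues, carried 46.9% and 15.6%, with 7.12% in the second table. Stat5a-203, with 797 residues, carried 24.6% ± 5.70 and 27.5% ± 6.43.

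Stat3, the main STAT of interleukin 6 type cytokines, was at 20.5 and 15.7 TPM (18.1 ± 3.35, SD, n = 2), a log2 ratio of -0.38. Replicate 1 was the higher, but the intervals of 18.4 to 24.7 and 14.7 to 19.7 TPM overlapped. It lies on chromosome 11 at 100885098 to 100939540 on the minus strand, tail to tail with Stat5a, and the gene models share 72 bases on opposite strands. The libraries were stranded per the labels, but no source used here says whether the counting used strand. The main coding transcript of Stat3, with 770 residues, carried 61.8% ± 6.89 of the gene. A transcript with 722 residues, the length of the short beta form that lacks the C-terminal activation domain, carried 1.44% ± 0.515 in the first table and 0.945% ± 0.240 in the second. Retained introns and other forms with no coding sequence carried 35.9% in replicate 1 and 25.8% in replicate 2, and the protein-coding forms stood at 13.1 and 11.7 TPM, closer together than the whole gene.

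Stat5b made up most of the STAT transcripts in both animals. It took 54.8% ± 3.68 (SD, n = 2) of the summed TPM of the 7 STAT genes, ahead of Stat3 with 24.6% ± 4.03. Stat6, used by interleukin 4, took 9.19%, and Stat5a 4.53%. The family sums were 74.7 and 72.5 TPM, and Stat4 was at 0.15 and 0 TPM.

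Among the feedback inhibitors, Cish, Socs2 and Socs3 were less abundant in replicate 2. A gene passed the criteria with a mean of 50 or more expected counts, a TPM difference of 2-fold or more and deposited credibility intervals that were apart. Of the 9 genes, 8 reached the count minimum and 3 passed all criteria, those named, each lower in replicate 2. Of all 11632 genes that reached the count minimum, 2.21% passed, with 1.76% lower and 0.447% higher in replicate 2. Because these 3 genes were the reason for choosing the group, nothing is read from their share. Socs2 lay just inside the 2-fold limit with a log2 ratio of -1.10, and the nearest member outside was Stat3 with -0.38, leaving aside Socs1, which had too few reads to be counted.

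Cish encodes CIS, which competes with STAT5 for docking sites on activated receptors and is among the best known STAT5 target genes. Its level was 46.5 TPM in replicate 1 but 1.59 TPM in replicate 2 (24.1 ± 31.8, SD, n = 2), from 1854 and 77 expected counts. The SD exceeded the mean. At the deposited gene level Cish was nearly as abundant as Ghr in replicate 1. In the second table Cish was at 35.8 TPM there, against 76.3 for Ghr. In replicate 2 Cish was below Socs2 and Stat5a at both. The credibility intervals, 40.6 to 51.5 and 0.954 to 2.52 TPM, were far apart, and replicate 1 was 27.6 times as high in TPM with 0.1 added, or 24.1 times in expected counts. This log2 ratio of -4.79 was the lowest of all 11632 genes ranked, and the second table gave 35.8 and 1.60 TPM.

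Cish lies on chromosome 9 at 107296026 to 107302784 on the plus strand of mm10. The tables did not place its reads on the same transcripts. Cish-201, which encodes the full 257 residues, carried 9.35% ± 3.38 of the gene in the first table and 71.9% ± 27.0 in the second. The short processed transcript Cish-205 of 371 bases carried 46.8% in the first and 17.4% in the second, and Cish-204, with 62 residues, 31.8% and 6.26%. The TPM of a gene depends on the lengths of the transcripts chosen, whereas the 1854 and 77 expected counts are summed over all of them. With protein-coding transcripts alone the log2 ratio of Cish was -4.57, and as counts scaled to library totals -4.59.

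Socs3 encodes the inhibitor that binds JAK kinases and the shared interleukin 6 receptor chain gp130. Its level was 4.89 and 0.72 TPM (2.81 ± 2.95, SD, n = 2), from 360 and 56 expected counts. The intervals of 4.39 to 6.79 and 0.630 to 1.68 TPM did not meet, and the log2 ratio of -2.61 was in place 11 from the lowest. The gene lies on chromosome 11 at 117966079 to 117970047 on the minus strand. Its coding transcript, of 225 residues, carried 97.4% of it in the first table but 66.7% in the second, which gave 12.6 and 1.20 TPM. Across the settings tried, the log2 ratio of Socs3 lay between -3.29 and -1.78.

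Socs2 encodes an inhibitor whose loss causes gigantism in mice through growth hormone signalling. Its level was 7.35 and 3.37 TPM (5.36 ± 2.81, SD, n = 2), from 450.68 and 205.00 expected counts, with a log2 ratio of -1.10. The deposited intervals, 7.40 to 10.1 and 3.46 to 5.29 TPM, did not overlap, although each began just above the TPM it belongs to. Socs2 missed the 2-fold limit with an added 1 TPM in place of 0.1 (-0.93), with the posterior mean TPM (-0.99) and after scaling to the ERCC RNAs (-0.94). The gene lies on chromosome 10 at 95385362 to 95417180 on the minus strand, and its main transcript, with 198 residues, carried 71.1% ± 4.52 in the first table and 54.5% ± 36.8 in the second.

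Socs1 encodes an inhibitor best known for ending interferon signals. It was at 0.45 and 0.21 TPM (0.33 ± 0.170, SD, n = 2), from 38 and 18 expected counts, under the minimum of 50. Its intervals of 0.312 to 0.595 and 0.135 to 0.331 TPM overlapped slightly. The log2 ratio was -0.83, between -1.03 and -0.26 across the settings tried, and with so few reads no difference was called. It lies on chromosome 16 at 10782240 to 10785536 on the minus strand.

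**Figure D3:**
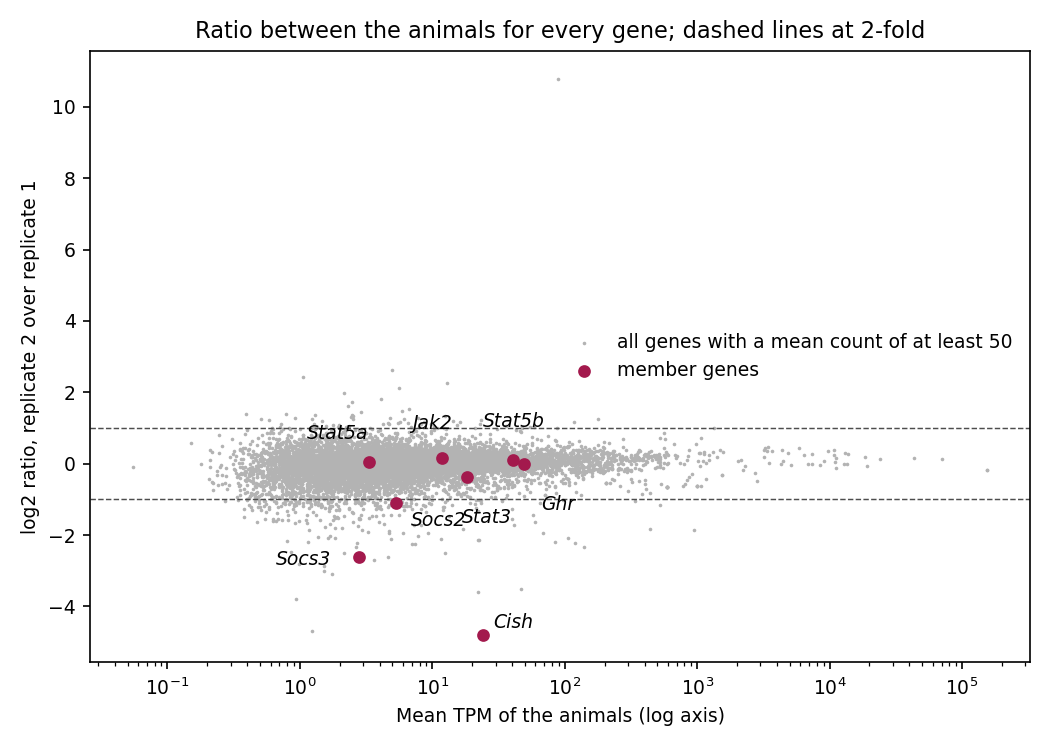
Log2 ratio of replicate 2 over replicate 1 against mean TPM (log axis) for the 11632 genes with a mean expected count of at least 50 (grey), with the 8 members that reached it in red and dashed lines at 2-fold. Cish lies below every other gene at -4.79, Socs3 at -2.61 and Socs2 at -1.10, and the other 5 members lie between the lines.

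The promoters of Cish and Socs3 held the motif bound by STAT dimers. RefSeq promoters (build GRCm38.p6, 250 bases before to 50 after the start) were found for 8 of the 9 genes, all but Socs2, and searched for TTCNNNGAA, a palindrome that reads the same on both strands. Windows of 30 bases around the matches are shown because they carry the motif next to the most different members, read 5′ to 3′ on the strand of the gene with the matches in capitals.
Cish, chr9:107296654-107296683, plus strand: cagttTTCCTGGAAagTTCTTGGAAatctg
Socs3, chr11:117969501-117969530, minus strand: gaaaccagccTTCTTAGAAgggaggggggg
Cish held 2 matches, separated by 2 bases and starting at positions 1 and 12 relative to the RefSeq start, inside the first exon of Cish-201. Socs3 held 1 match, starting at position -154. No match lay in the promoters of Ghr, Jak2, Stat3, Stat5a, Stat5b or Socs1, which says only that these letters are not in those windows. Among all 32851 promoters of this length, 8.30% held the motif and 0.457% held 2 or more. The wider form with 4 bases between TTC and GAA, held by 6.95% of all promoters, was in none of the members' promoters. A match is a run of letters and no measure of binding, and binding was not measured in these samples.

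Most of the difference in the CIS and SOCS family came from Cish. Cish and Socs1 to Socs3 summed to 59.2 and 5.89 TPM, a log2 ratio of -3.31. Socs4 to Socs7, which are less tied to STAT signalling, summed to 34.5 and 35.3 TPM. Socs7 stood at 15.7 and 17.0 TPM, Socs6 at 12.1 and 11.4, Socs5 at 4.00 and 4.40, and Socs4 at 2.73 and 2.51. None of these 4 passed the criteria, against 2.21% of all genes. The make-up of the family therefore differed between the animals. Cish was 49.7% of the family in replicate 1 and 3.86% in replicate 2, and Socs4 to Socs7 went from 36.8% to 85.7%.

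**Figure D4:**
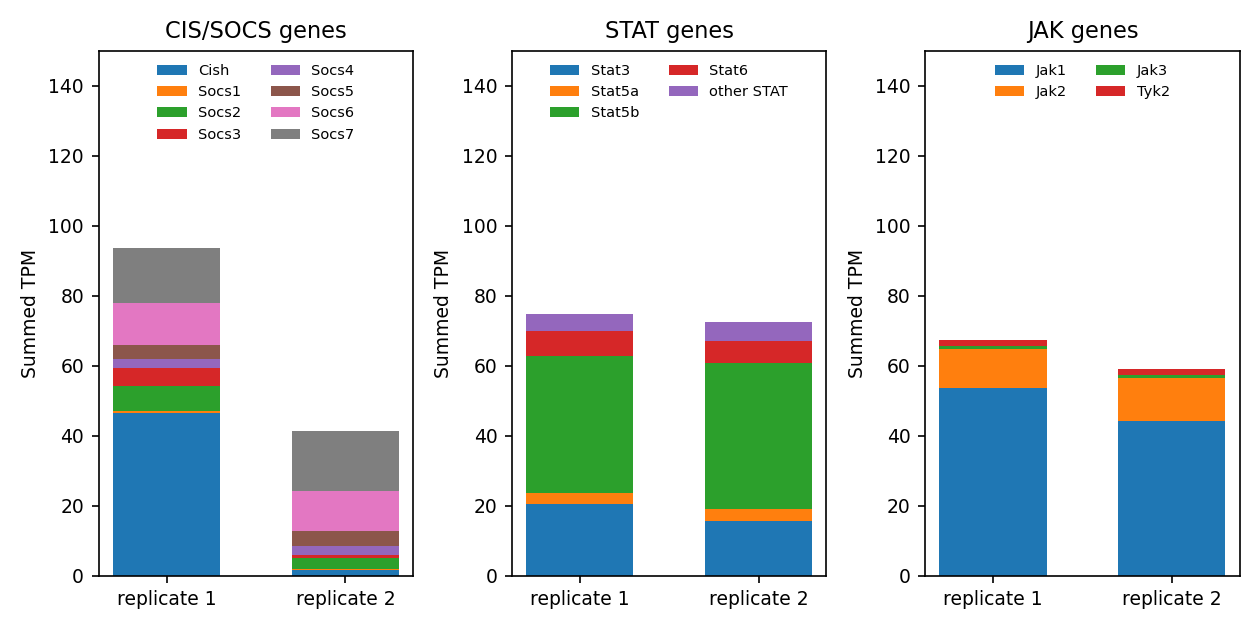
Summed TPM of the CIS/SOCS, STAT and JAK genes in each animal, stacked by gene, on 1 common axis from 0. The CIS/SOCS bar is 93.7 TPM in replicate 1 and 41.2 in replicate 2, mostly through Cish, while the STAT bars (74.7 and 72.5) and the JAK bars (67.3 and 59.0) are closer in height.

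The rest of the pathway was read from 11 lists of 116 other genes, of which 78 reached the count minimum (Il4ra stands in 2 of the lists). The lists were written with these results known, so their counts are a description. Of these 78 genes, 7 were past the criteria in the lower direction and 0 in the higher one, against 1.76% and 0.447% of all genes. Their median log2 ratio was -0.09 and that of all 11632 genes 0.00. The 7 genes were Cntf, Irs2, Cdkn1a, Cebpd, Fos, Junb and Fgl2. This count depended on the setting and became 3 with an added 1 TPM, where Cntf, Fgl2, Fos and Junb dropped out, and 4 after scaling to the ERCC RNAs. It rose to 9 in the second table, where Il4ra and Nfil3 came in, and to 8 as counts scaled to library totals, where Nfil3 came in.

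Of 16 receptors and co-receptors that reached the minimum, 0 passed, against 2.21% of all genes. Their median log2 ratio was -0.13. Il4ra, a chain of the interleukin 4 receptor, had -0.75 and passed in the second table with -1.10. Il6st, which encodes gp130, the chain shared by the interleukin 6 family, was the most abundant at 50.4 and 50.2 TPM. This was close to the level of Ghr, but in the second table Il6st was at 51.5 and 46.9 TPM and Ghr at 76.3 and 70.1. Of 19 ligands only Ctf1 and Cntf reached the minimum. Ctf1, which encodes cardiotrophin 1, was at 6.05 and 5.92 TPM. Cntf, the ciliary neurotrophic factor known from Schwann cells, was at 3.32 and 1.36 TPM with a log2 ratio of -1.23. Gh, Prl, Epo, Osm, Il4, Il13, Ifng, Ifnb1, Csf2 and Csf3 had 0 counts in both libraries, and a count of 0 allows up to 3 reads, or 0.0812 and 0.0774 CPM, counts scaled to the library total.

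None of the other kinases (5 genes), other STATs (3 of 4 reached the minimum), ubiquitin ligase partners of the SOCS box (4) or other negative regulators (10 of 11) passed the criteria. Of all genes that reached the minimum, 2.21% passed. The ligase partner Elob, an elongin subunit, was at 106 and 120 TPM, and the phosphatase gene Ptpn11, which encodes SHP2, at 29.0 and 31.5 TPM. Among 10 adaptors 1 passed, lower in replicate 2, against 1.76% of all genes in that direction. This was Irs2, an insulin receptor substrate, at 17.1 and 7.26 TPM, a log2 ratio of -1.22, while its relative Irs1, the most abundant adaptor, was at 32.1 and 20.1 TPM without passing.

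Among genes known to respond to growth hormone or STAT5, 1 of 11 passed, lower in replicate 2, against 1.76% of all genes in that direction. At any size 9 lay lower and 2 higher in replicate 2, and the median log2 ratio was -0.41, against 0.00 for all genes. Cdkn1a, the cell cycle inhibitor p21, was at 19.8 and 7.12 TPM, a log2 ratio of -1.46. Igf1, the classical growth hormone target, was at 17.2 and 12.9 TPM with a ratio of -0.41 and did not pass. Mcl1, a survival gene and the most abundant of the list, was at 46.7 and 44.2 TPM. The 2 higher genes were Bcl6 and the kinase gene Pim1. Bcl6, a gene known to be repressed by growth hormone and STAT5 in liver, had a ratio of 0.30, and 0.22 in the second table. Pim1 had 0.14 but -0.38 in the second table. Of the 9 lower genes, Igfals had -0.24 but 0.05 in the second table. Whether growth hormone signalling differed between the animals was not tested. Il4ra, Nfil3, Igf1, Igfals, Bcl6 and Pim1 were picked for mention after their values were seen.

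Of 11 targets of STAT3 and interleukin 6, 4 passed, all lower in replicate 2, against 1.76% of all genes in that direction. The median was -0.75, against 0.00 for all genes. Cebpd, a C/EBP transcription factor of the acute phase response, was at 11.7 and 2.38 TPM (-2.25). The immediate early genes Fos, at 6.54 and 2.90 TPM (-1.15), and Junb, at 3.89 and 1.75 TPM (-1.11), also passed. Fgl2, a fibrinogen-like gene, was at 8.65 and 4.00 TPM (-1.09). The most abundant of the list, the angiogenic factor Vegfa, was higher in replicate 2, at 42.4 and 61.8 TPM (0.54), without passing.

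**Figure D5:**
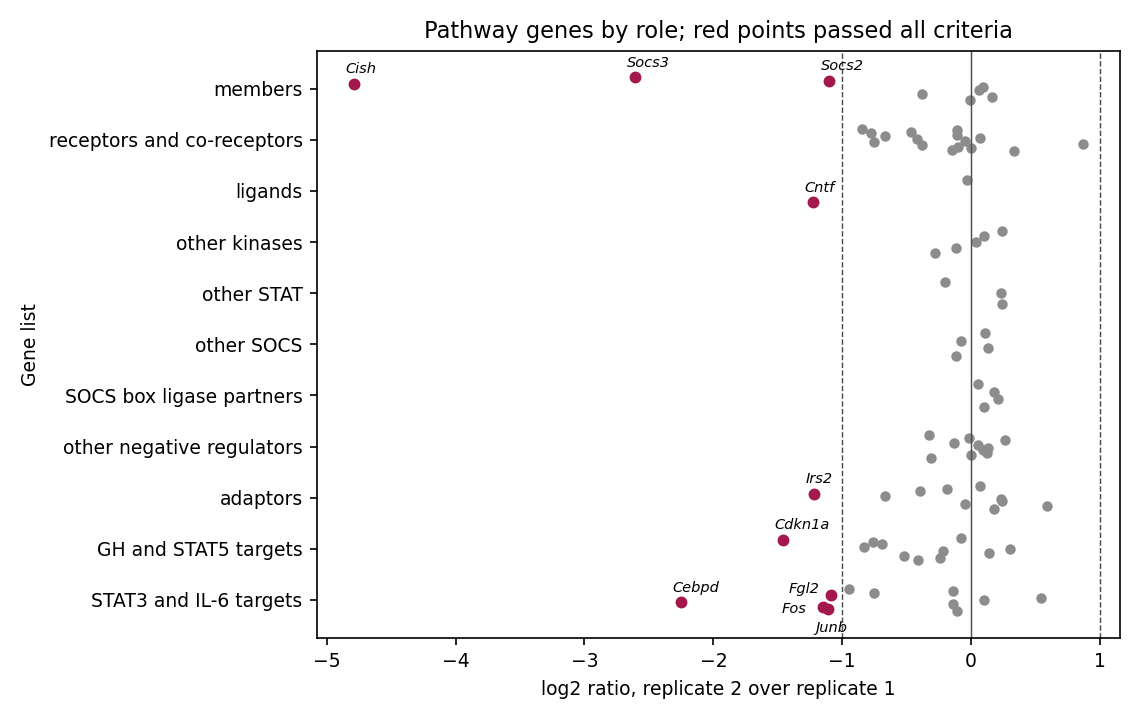
Log2 ratio of replicate 2 over replicate 1 for the 8 members and the genes of 10 of the 11 pathway lists that reached a mean expected count of 50, by role, with dashed lines at 2-fold and genes past all criteria in red and named. The red points all lie to the left, from Cish at -4.79 to Fgl2 at -1.09, and kinases, STATs and the other SOCS genes lie within the lines.

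Marker RNA of some cell types differed between these pieces of muscle, and that of others did not. Markers of muscle fibres, led by Acta1, summed to 95440 and 99890 TPM, and 0 of 8 passed the criteria. Of all genes that reached the count minimum, 1.76% passed in the lower direction and 0.447% in the higher one. Of 8 Schwann cell markers, 7 passed the criteria in the lower direction, and the median log2 ratio of the list was -1.91. Fibroblast markers, led by Col1a1, summed to 1764 and 921 TPM (2 of 7 lower). Tendon markers, led by Thbs4, summed to 147 and 98.2 TPM (3 of 6 lower). Adipocyte markers, led by Fabp4, summed to 108 and 134 TPM (1 of 5 higher). At any size 5 of 5 adipocyte markers lay higher in replicate 2, with a median log2 ratio of 0.80. Macrophage markers, led by Lyz2, summed to 71.2 and 49.8 TPM with 0 of 8 past the criteria. At any size, however, 8 of 8 lay lower in replicate 2, and their median log2 ratio was -0.65, against 0.00 for all genes. Endothelial markers, led by Cdh5, summed to 61.8 and 62.1 TPM, and satellite cell markers, led by Chodl, to 7.12 and 6.41 TPM, and none passed.

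Schwann cell, tendon, macrophage and fibroblast markers thus had medians on the same side as Cish, Socs2 and Socs3, with -0.94 for tendon and -0.44 for fibroblasts, and their part in these differences was not tested. In bulk tissue fewer cells of a type and less RNA per cell cannot be told apart. Neutrophil, lymphocyte and hepatocyte markers were at or near 0 in both libraries. The neutrophil list, led by S100a8, summed to 0.23 and 0.14 TPM with Ly6g and Cxcr2 at 0, and the lymphocyte list, led by Cd79b, to 0.20 and 0.22 TPM with Cd3e, Cd8a and Nkg7 at 0. Of the hepatocyte list, Alb, Apoa1 and Ttr were at 0 and the sum was 0.05 and 0 TPM. In the second table, however, Cxcr2 was at 0.379 and 0.358 TPM, Cd8a at 0.204 and 0.155 and Apoa1 at 0.0559 and 0.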

How the data were processed

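Total RNA-seq of 2 animals was analysed from files the authors deposited, on mouse build mm10 with GENCODE M21 per the file headers and labels. No source used here names the quantifiers. The authors deposited expected counts (estimated reads, which need not be whole), TPM, posterior mean TPM, FPKM (an alternative only), the percent of each gene in each transcript, and bounds of a TPM credibility interval, a deposited signal whose level is not stated. A second deposited transcript table held estimated counts and TPM. All 55536 Ensembl genes matched M21.

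Depth was 36952277 and 38754338 expected counts, with 0.614% and 0.527% from ERCC RNAs. Intervals and the floor of 3 reads cover counting and read assignment only. Over 14984 genes the chi-square of the counts was 35.1 per degree of freedom, so the libraries differed beyond sampling noise. Ratios are replicate 2 over replicate 1 on log2(TPM + 0.1), which understates those of low genes. Transcript shares were recomputed from transcript TPM, and receptor and binding protein forms of Ghr were set by the annotated stop codon.

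Members, lists and criteria were chosen with earlier results of these data known. Named were all members and, of each list, the most abundant gene, those past the criteria and those at 0 in both libraries. Some results are not reported here. Alternatives were another pseudocount, table, unit, scaling, count minimum, fold and interval rule. CPM and protein-coding transcripts alone were added after the data were seen. Work was done in Python 3.11.15 with pandas 2.3.3, numpy 2.4.6 and matplotlib 3.10.9. The criteria were tested on simulated counts with sampling noise alone. That does not show how often genes pass in libraries that differ beyond sampling noise, as these do.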

Additional observations from a re-analysis of the deposited data

How the results depend on the processing

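The directions of Cish, Socs2, Socs3, Stat3 and Socs1 held under the 9 alternatives run for the ratios, with Cish between -4.90 and -4.20, Socs2 between -1.61 and -0.93 and Stat3 between -0.64 and -0.17. Ghr (-0.12 to 0.15), Stat5a (-0.01 to 0.36), Stat5b (-0.18 to 0.26) and Jak2 (0.00 to 0.33) stayed within 2-fold, and some of them changed sign. The median gene shifted by -0.11 in the second table and by 0.17 under ERCC scaling. Of Ghr, the second table gave 53.48% to the receptor form and 33.92% to the binding protein form.

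The count of lower pathway genes, 7, became 3 with a pseudocount of 1, 4 under ERCC scaling, 14 at 1.5-fold and 1 at 3-fold (Cebpd). It became 9 in the second table and 8 with FPKM, with CPM and after rescaling over nuclear protein-coding genes. The count of higher ones, 0, became 1 under ERCC scaling and at 1.5-fold (Cntfr) and with no count minimum (Ifit3). Over all genes the lower count, 205, became 97 with a pseudocount of 1, 129 under ERCC scaling, 110 at a minimum of 200, 544 at 1.5-fold and 56 at 3-fold. The higher count, 52, became 27, 83, 30, 204 and 7 in that order, 29 in the second table and 93 with no minimum. Fewer or more genes can pass by construction under another minimum or fold. A pseudocount of 1 makes every ratio smaller in size, so fewer genes pass by construction. ERCC scaling raises every ratio by the same amount, so fewer lower and more higher genes pass by construction. For the remaining settings the cause was not tested. No paired analysis was possible because the labels give 1 group.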
